A study of Mus musculus with 18 samples.

Results

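The genes described here encode the proteins of the cytosolic ribosome, among them Rpl10a, the protein that carries the tag by which ribosomes were pulled down. They were chosen by symbol: Rpl or Rps followed by a digit, or Rplp0, Rplp1, Rplp2 or Rpsa, without Rps6k genes, names with -ps and names ending in l other than Rps27l. The rule found 81 of the 14068 genes listed in at least 1 of the 3 deposited tables, and all 81 were listed in all 3. Of these, 48 are Rpl genes, which code for the large subunit and its stalk and include Rpl10a, and 32 are Rps genes of the small subunit. The last, Rps19bp1, codes for a binding partner of Rps19 and was kept because its symbol meets the rule. Rps27l, Rpl22l1 and Rpl7l1 are close relatives of Rps27, Rpl22 and Rpl7, and Rps4y2 is listed as a pseudogene, so 76 of the 81 belong to the standard set of ribosomal proteins.

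RNA was sequenced from choroid (scraped retinal pigment epithelium and choroid), retina and brain of mice carrying Tie2-cre and NuTRAP, which is the genotype of all 18 libraries. The deposited column names of all 18 libraries also carry the tag WT, given here as labelled, so no groups differ in it. In these mice Cre, expressed from the Tie2 promoter, switches on a green fluorescent protein fused to Rpl10a, so that ribosomes of the recombined cells can be captured with an antibody to that protein. The Tie2 promoter drives expression in endothelium, and the blood lineage uses it too. Each tissue had an input fraction, set aside from the cleared lysate, and a positive fraction, recovered with the antibody, with 3 libraries in each of the 6 groups and the replicate numbers 421, 953 and 960. For each retina or choroid sample 2 eyes were pooled, and a brain sample was 0.5 of a brain. The labels give no age or sex, and a pull-down from mice without Cre was not analysed here.

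Counts over listed genes ran from 2649095 to 4587921 in choroid positives, from 6260958 to 11071373 in retina positives and from 18618427 to 28277853 in brain positives. The inputs held 8807306 to 14484068 counts in choroid, 15243098 to 21521130 for retina, and 9596740 to 32064355 for brain. Of 15 endothelial marker genes, 15 were called higher in the positive fraction of choroid, 14 in retina and 15 in brain, with summed levels of 9911 to 12509 CPM, the count of a gene as a rate of its library's total, against 655 to 1203 in choroid, 2629 to 4466 against 214 to 261 in retina and 5745 to 8146 against 155 to 219 in brain. Of the 8 microglia and macrophage markers, 7 were called higher in choroid and 8 in brain, as were the 6 listed in retina. A library that stands apart bears on every brain result below. Brain input 960 had the fewest counts of the brain inputs, and its erythroid markers summed to 1034 CPM against 176 and 343 in the other two. Transcripts shorter than 1000 bases took 7.19% of its counts outside the ribosomal protein genes, against 3.12% and 3.28%. Choroid input 960 also had the highest such share of its group, at 7.81% against 5.69% and 6.47%. Values without brain input 960 are given beside the brain results below.

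Ribosomal proteins assemble with ribosomal RNA in the nucleolus into a small subunit, which reads the messenger RNA, and a large subunit, which forms the peptide bond. Their messenger RNAs are short and abundant, and most begin with a stretch of pyrimidines, the terminal oligopyrimidine tract, through which growth signalling changes how much of each is on ribosomes. Rpl10a sits at the surface of the large subunit, on the stalk beside the site where spent transfer RNA leaves, which is why a tag there leaves the ribosome open to an antibody. Many ribosomal protein genes have processed pseudogenes whose sequence is nearly the same, and the labels do not say how the authors' counting shared reads among such copies, so single values are uncertain to that extent.

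The 81 genes took between 1.27% and 4.20% of all listed counts. In choroid they took 2.92%, 2.92% and 4.16% of the counts of inputs 421, 953 and 960, and 2.902%, 3.50% and 4.20% of the counts of the positives. The choroid fractions overlapped, with means of 3.33% ± 0.714 (SD, n = 3) in inputs and 3.54% ± 0.651 in positives (two-sided exact permutation p = 0.70). In retina the inputs held 1.39%, 1.41% and 1.27% and the positives 1.46%, 1.48% and 1.60%. Every retina positive lay above every retina input, by a mean of 0.158 percentage points (exact permutation p = 0.10, the smallest that 3 against 3 libraries allow). In brain the inputs held 1.51%, 1.55% and 3.99% and the positives 3.15%, 3.30% and 2.93%. Brain inputs 421 and 953 lay below all brain positives and input 960 above them, so that over all 6 libraries the exact permutation p was 0.40. The mean of the brain positives was 2.04 times that of inputs 421 and 953 alone. Counted only over the 10505 genes listed in all 3 tables, the retina fractions overlapped (exact permutation p = 0.20). Short transcripts, by the length limit given above, also took more of the counts outside the 81 genes in retina positives. Their share was 2.97% ± 0.383 there and 2.48% ± 0.0901 in retina inputs, without overlap (exact permutation p = 0.10). In choroid and brain the fractions overlapped in this share. Its relation to the share of the 81 genes was not tested. In bulk samples of this kind, a different number of cells of a type and a different amount of each RNA per cell cannot be told apart.

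**Figure D1:**
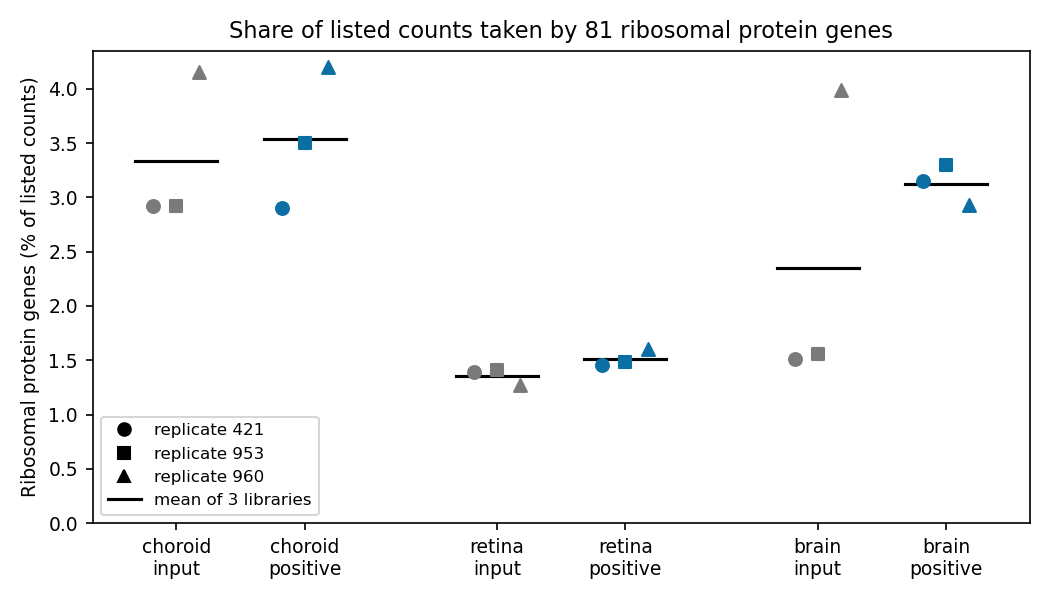
Share of listed counts (percent, vertical axis) taken by the 81 ribosomal protein genes in each of the 18 libraries, by tissue and fraction; symbols give the replicate number and the bar the mean of 3 libraries. Brain input 960 lies at 3.99% beside brain inputs at 1.51% and 1.55%, and all retina libraries lie between 1.27% and 1.60%.

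Rpl10a itself (chr17:28328471-28331033, plus strand, mm10) was higher in the positive fraction of all 3 tissues. Its level was 267, 274 and 373 CPM in choroid inputs 421, 953 and 960 and 964, 587 and 662 CPM in the positives. In retina it was 212, 200 and 193 CPM in inputs and 421, 378 and 375 CPM in positives. In brain it was 118, 125 and 375 CPM in inputs and 606, 665 and 511 CPM in positives. In none of the tissues did the fractions overlap. By edgeR's quasi-likelihood test with Benjamini-Hochberg adjustment over all genes, the log2 fold change was 1.27 ± 0.25 (SE) in choroid (adjusted p = 0.00412), 0.96 ± 0.11 in retina (adjusted p = 0.000245) and 1.53 ± 0.47 in brain (adjusted p = 0.0377), or 2.42-, 1.94- and 2.89-fold. Over the alternatives tried the adjusted p ran from 1.84e-06 to 0.0243 in choroid, from 1.11e-16 to 0.0614 in retina and from 1.38e-05 to 0.145 in brain. In brain the adjusted p (edgeR) rose to 0.0874 when input 421 was left out, to 0.0928 when input 953 was, and to between 0.0771 and 0.145 when any 1 of the 3 positives was, so the call ended in each case, while without brain input 960 the log2 fold change was 2.29 (4.89-fold). The retina call was lost when all 18 libraries shared 1 fit (adjusted p = 0.0614). Gene counts do not separate reads of the tagged copy from reads of the native gene, and the labels do not say whether the tagged copy was counted under Rpl10a.

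The share of Rpl10a within the ribosomal protein counts does not depend on how libraries are scaled. In choroid it was 1.02%, 1.02% and 0.943% in inputs and 3.19%, 1.55% and 1.403% in positives. In retina it was 1.52%, 1.41% and 1.50% in inputs and 2.91%, 2.56% and 2.36% in positives. In brain it was 0.813%, 0.848% and 0.905% in inputs and 1.89%, 1.94% and 1.74% in positives. All positives lay above all inputs of the same tissue, and brain input 960 lay with the other brain inputs by this measure. Relative to the other 80 genes, Rpl10a was 1.94-fold higher in the choroid positives, 1.78-fold in retina and 2.20-fold in brain (exact permutation p = 0.10 in each, the smallest possible). Choroid positive 421 held the highest share, and without it the choroid difference was 0.577 on the log2 scale instead of 0.957.

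**Figure D2:**
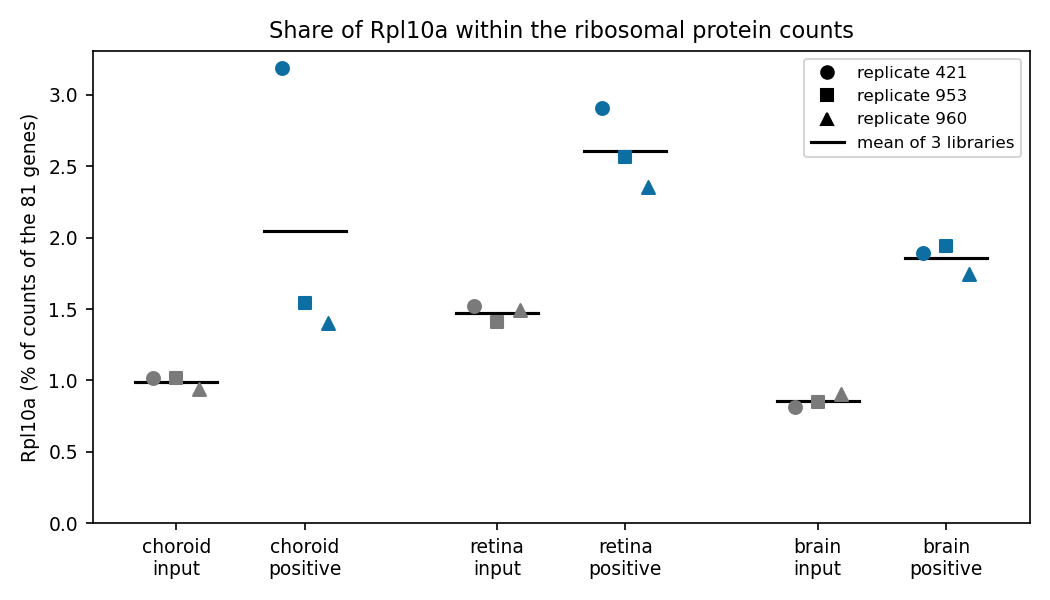
Rpl10a as a percent of the counts of the 81 ribosomal protein genes (vertical axis) in each of the 18 libraries; symbols give the replicate number and the bar the mean of 3 libraries. In each tissue all 3 positives lie above all 3 inputs, with means of 2.05% against 0.992% in choroid, 2.61% against 1.48% in retina and 1.86% against 0.855% in brain.

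Divided by transcript length (CPM per kilobase, over the 80 genes with a length), Rpl10a moved up the order of the ribosomal protein genes in each pull-down. Lengths are of 1 annotated transcript per gene, the longest where several ranked alike. They reach 5179 bases for Rps15a and 4920 for Rpl24, and so long an entry lowers a gene's rank. The order therefore rests on that choice. In choroid Rpl10a was rank 41 in inputs, at 418 ± 81.5 CPM per kilobase (SD, n = 3), and rank 8 in positives, at 1012 ± 274. In retina it went from rank 18, at 276 ± 13.4, to rank 1, at 537 ± 35.1. In brain it was rank 45 in inputs, at 282 ± 201, and rank 7 in positives, at 815 ± 107. In brain inputs 421 and 953 alone it was rank 49, at 162 and 171. The neighbours at the top of the retina positives were Rps15, at 526 ± 24.9, and Rpl41, at 510 ± 21.4, which did not differ from Rpl10a beyond their spread. Rplp1, of the acidic stalk, had the highest level per length in the inputs of choroid (1198 ± 378) and brain (1010 ± 846, or 524 and 519 in inputs 421 and 953, still the highest), and Rps15 had it in the retina inputs (491 ± 29.8).

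In choroid, 12 of the 81 genes were called higher in the positive fraction and 0 lower, at an adjusted p below 0.05. This is 14.8% of the members, against 21.1% of all 11718 genes called higher and 20.9% called lower. The median log2 fold change was 0.22 over the members and -0.03 over all genes, and 60 of the 81 were above 0. All positives lay above all inputs for 10 members and below them for 1, against 26.6% and 28.4% of all genes. Of the 47 Rpl genes other than Rpl10a, 5 were called higher, and of the 32 Rps genes 6. The 6 include Rps27l and Rps4y2, which are not in the standard set.

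After Rpl10a, the highest choroid value was that of Rps4y2, the gene listed as a pseudogene, at 18.7, 19.8 and 30.1 CPM in inputs and 40.6, 49.7 and 59.8 CPM in positives (log2 fold change 1.12 ± 0.26). Rps27l, a relative of Rps27 known as a target of p53, was at 40.3, 55.1 and 67.7 CPM in inputs and 70.8, 152 and 111 CPM in positives (1.03 ± 0.30). Rpl23, a large subunit protein at the face that meets the small subunit, was at 420, 442 and 628 CPM in inputs and 664, 1117 and 1153 CPM in positives (0.98 ± 0.27). In all of these the lowest positive lay above the highest input, though for Rps27l and Rpl23 by little. Rps23, which lines the decoding centre, had a log2 fold change of 0.88, with 379 to 548 CPM in inputs and 590 to 967 CPM in positives. The other called members were Rpl19 (0.83), Rpl7 (0.82), Rps27a (0.81), Rpl9 (0.80), Rps9 (0.79), Rpl5 (0.78) and Rps3 (0.71). Rps27a codes for a fusion of ubiquitin with a small subunit protein, and Rps3 stands where messenger RNA enters the ribosome.

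The choroid count rests on few libraries. Leaving out input 421, input 953, positive 953 or positive 960 left 2 genes called higher, Rpl10a and Rps4y2, while 17.0%, 13.7%, 16.6% and 17.3% of all genes were called higher. Leaving out input 960 or positive 421 gave 20, against 18.6% and 22.0% of all genes. With the replicate number as a block, 32 members were called higher and 2 lower, against 27.5% and 29.1% of all genes. With library size scaling alone, which lowers the median of all choroid genes by 0.23, 6 were called higher and 1 lower, against 14.99% and 28.5% of all genes. Choroid input 421 and positive 421 also held more of the oligodendrocyte markers than the other choroid libraries (5184 CPM against 198 and 293 in inputs, 1518 CPM against 96.9 and 158 in positives). The 960 libraries, which held the highest share of ribosomal protein counts in each choroid fraction, also held the most erythroid and photoreceptor RNA. Erythroid markers summed to 1494 CPM in input 960 against 211 and 606, and to 802 CPM in positive 960 against 82.8 and 322. Photoreceptor markers summed to 3858 CPM in input 960 against 291 and 1652, and to 1643 CPM in positive 960 against 103 and 503. The part of these cell types in these results was not tested.

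**Figure D3:**
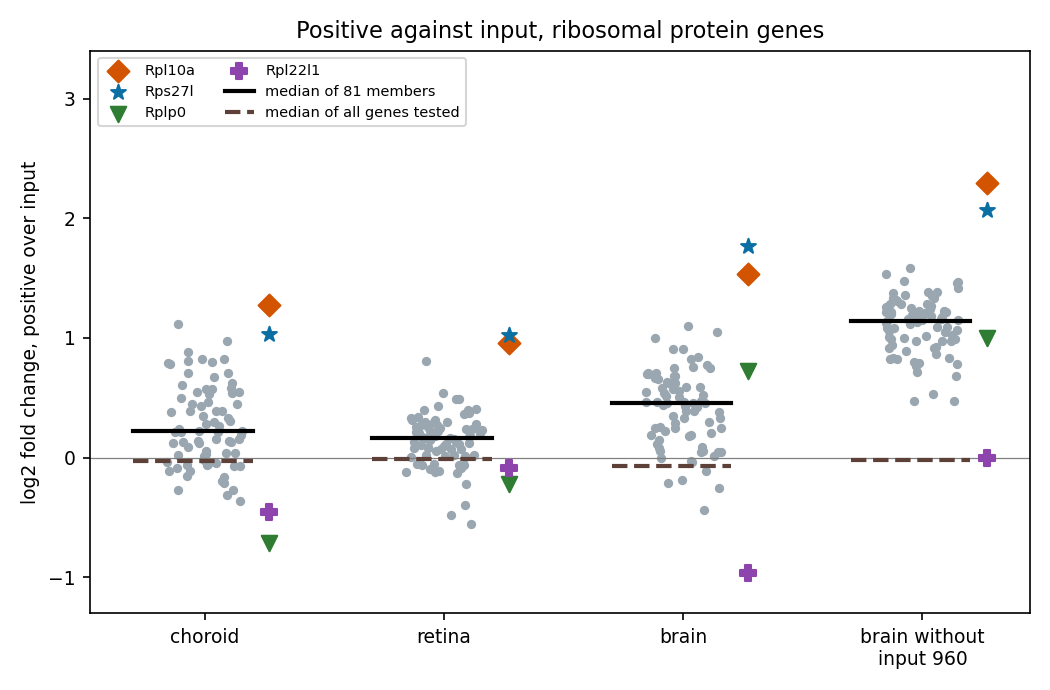
Log2 fold change of positive over input (vertical axis) for the 81 ribosomal protein genes in choroid, retina, brain and brain without input 960; grey points are single genes, coloured symbols the 4 named genes, the black bar the median of the 81 and the dashed bar the median of all genes tested. The medians of the members are 0.22, 0.16, 0.46 and 1.14, and Rpl10a is the highest in choroid and in brain without input 960.

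In retina, 14 members were called higher and 2 lower, or 17.3% and 2.47% of the 81, against 18% and 13.7% of all 12369 genes. The median was 0.16 over the members and -0.01 over all genes, and 64 of 81 were above 0. For 40 members all positives lay above all inputs and for 4 all lay below, against 24.7% and 25.3% of all genes. Of the Rpl genes other than Rpl10a 9 of 47 were called higher and 1 lower. Of the Rps genes it was 4 of 32, Rps27l among them, and 1.

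Rps27l had the highest value in retina, at 9.71, 10.5 and 11.2 CPM in inputs and 22.1, 23.0 and 19.2 CPM in positives (log2 fold change 1.03 ± 0.15, adjusted p = 0.00155, edgeR). Rpl41, the shortest ribosomal protein, was at 178, 181 and 151 CPM in inputs and 288, 292 and 311 CPM in positives (0.80 ± 0.11, adjusted p = 0.000955, edgeR). Rps27, the closest relative of Rps27l, was at 49.0, 48.6 and 49.2 CPM in inputs and 76.8, 72.9 and 63.9 CPM in positives (0.54 ± 0.11). The groups did not overlap in any of these. Rpl31 (0.49), Rpl23 (0.49), Rpl27a (0.43), Rps23 (0.41), Rpl35a (0.40), Rpl38 (0.40), Rpl11 (0.37), Rpl5 (0.37), Rpl19 (0.34) and Rps26 (0.32) were also called higher. The replicate block ended the calls of Rpl38 (adjusted p = 0.0541, edgeR), Rpl5 (0.0582), Rpl11 (0.0590), Rpl19 (0.0839) and Rps26 (0.0850). Rpl5 and Rpl11 are known together as the pair that binds Mdm2 when ribosome assembly is disturbed.

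The genes called lower in retina were Rpsa and Rplp1. Rpsa, a small subunit protein also known as a laminin receptor precursor, was at 335, 339 and 315 CPM in inputs and 214, 203 and 255 CPM in positives (log2 fold change -0.56 ± 0.12, adjusted p = 0.0088, edgeR). Rplp1, of the acidic stalk that recruits elongation factors, was at 250, 235 and 220 CPM in inputs and 157, 172 and 176 CPM in positives (-0.48 ± 0.10, adjusted p = 0.00952, edgeR). Neither overlapped between fractions.

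The retina counts also moved with single libraries. Without any 1 of the 3 inputs 5 members were called higher, against 10.4% to 11.0% of all genes. Without positive 421, 953 and 960 the members called higher were 28, 10 and 18, against 19.3%, 12.2% and 25.02% of all genes. Retina positive 421 stood apart from the other positives, with mural markers at 355 CPM against 35.7 and 16.7 and microglia and macrophage markers at 171 CPM against 589 and 742. The genes called lower were 0 without input 953, 1 without input 421 and 5 without positive 960. With all 18 libraries in 1 fit, 1 member was called higher and 0 lower (13.7% and 6.44% of all genes), and with the replicate number as a block 9 were called higher and 2 lower (17.7% and 13.8% of all genes). Rpl10a, Rpl31, Rpl41, Rps27 and Rps27l were called in every fit that left out 1 retina library. Photoreceptor markers summed to between 37145 and 38814 CPM in retina inputs and 21755 to 36193 CPM in positives, so the retina pull-downs still held much photoreceptor RNA. The part of these markers in the retina values was not tested.

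In brain, 10 members were called higher and 0 lower, or 12.3% of the 81, against 21.2% of all 12919 genes called higher and 18.3% called lower. The median was 0.46 over the members and -0.07 over all genes, and 72 of 81 were above 0. The fractions did not overlap for 13 members, all higher in the positives, against 29.1% of all genes higher and 26.2% lower. Rps27l was at 9.89, 11.8 and 18.96 CPM in inputs and 43.8, 51.4 and 41.6 CPM in positives, with no overlap (log2 fold change 1.77 ± 0.26, adjusted p = 0.00238, edgeR). Rpl23 was at 201, 200 and 407 CPM in inputs and 561, 616 and 499 CPM in positives (1.05 ± 0.31), with an adjusted p of 0.0507 (edgeR) under the replicate block. Rpl10, an X-linked protein that joins the large subunit late in assembly, was at 183, 177 and 264 CPM in inputs and 435, 444 and 369 CPM in positives (1.00 ± 0.20). Rpl31 (0.91), Rpl4 (0.74), Rplp0 (0.72), Rpl7l1 (0.70) and Rpl15 (0.62) were called too, as was Rpl10a. The replicate block also ended the calls of Rpl31 (adjusted p = 0.0587, edgeR), Rplp0 (0.0712) and Rpl15 (0.0926). Without input 960 the values were 1.48 for Rpl23, 1.32 for Rpl31, 1.21 for Rpl10, 1.00 for Rplp0, 0.91 for Rpl4, 0.84 for Rpl15 and 0.80 for Rpl7l1, all called. For each of the brain genes named here, input 960 lay above the other inputs and below every positive.

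Without brain input 960, 80 of the 81 genes were called higher in the brain pull-down, against 36.1% of all genes called higher and 35.9% called lower. The median of the members was then 1.14, or 2.21-fold, against -0.02 over all genes. Rpl10a was the highest at 2.29, followed by Rps27l at 2.07. The gene that was not called was Rpl22l1, at 35.5 and 36.6 CPM in inputs 421 and 953 and 38.6, 34.7 and 34.6 CPM in positives. Leaving out any other brain library gave 1 to 5 genes called higher (4 without input 421 or input 953, 3, 1 and 5 without positive 421, 953 and 960), against 15.6% to 18.2% of all genes, and Rps27l was the member called in all 6 of these fits. With the replicate number as a block, 6 were called higher and 0 lower (19.4% and 12.9% of all genes).

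Brain input 960 differed from inputs 421 and 953 in all 81 genes in the same direction. The ratio of its level to their mean had a median of 2.79-fold over the members, with a log2 range of 0.28 for Rpl7l1 to 2.51 for Rpl37a, against a median log2 ratio of -0.08 over all brain genes. Of the 10 members called higher in brain, 9 were among the 20 with the lowest such ratio. The ratio comes from the same inputs as the brain test, and a high one widens their spread. This overlap is therefore no separate result. The ratio fell with transcript length as annotated here (Spearman rho -0.48 over 80 genes, a description within these libraries). Mitochondrial ribosomal protein genes, which code for the separate ribosome of mitochondria, took 0.466% of the counts of input 960 against 0.250% and 0.258%. Compared within the replicate number, 81 and 80 of the 81 genes were higher in brain positives 421 and 953 than in their inputs, and 13 in positive 960.

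**Figure D4:**
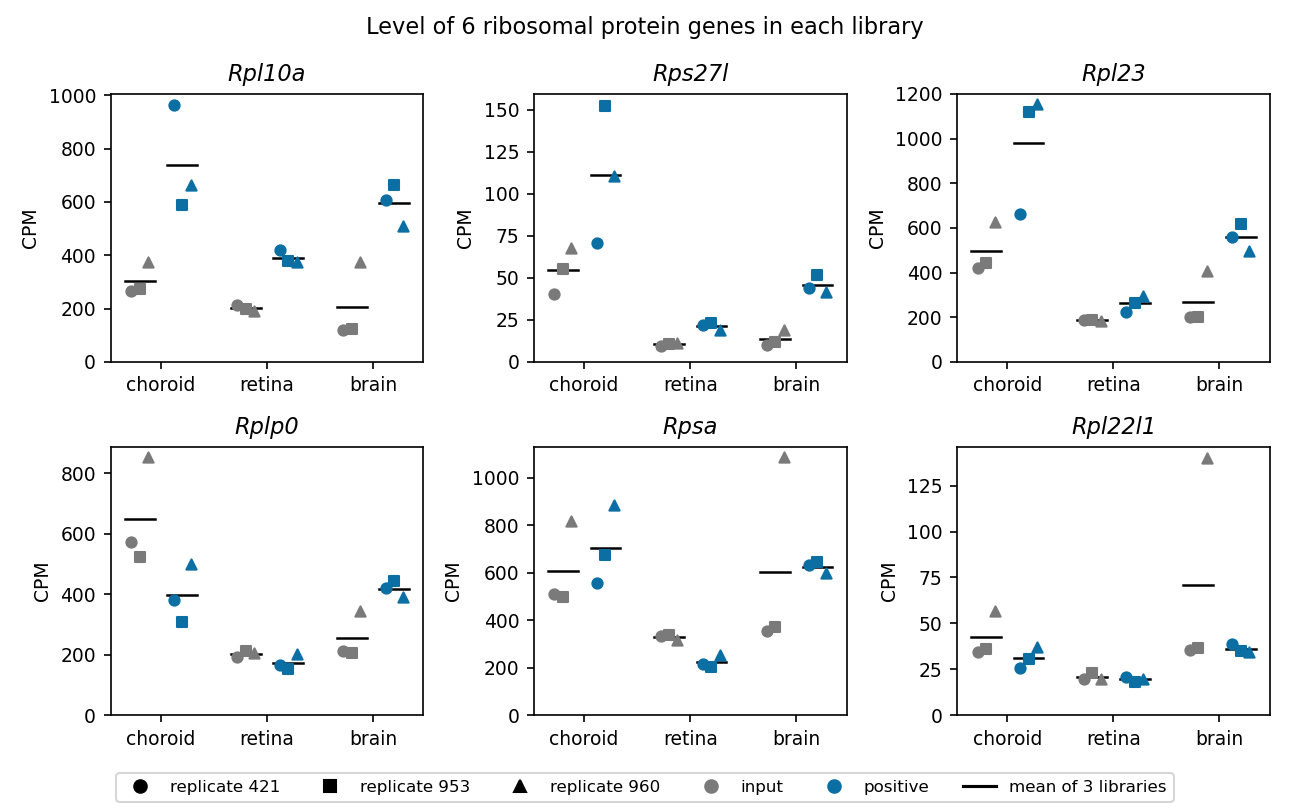
Level in CPM (vertical axes, scaled within each tissue) of Rpl10a, Rps27l, Rpl23, Rplp0, Rpsa and Rpl22l1 in each library, inputs in grey and positives in blue; symbols give the replicate number and the bar the mean of 3 libraries. Rplp0 lies lower in all choroid positives (308 to 499 CPM) than in the choroid inputs (524 to 853 CPM), and Rpl22l1 reaches 140.1 CPM in brain input 960 alone.

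Across the 3 tissues, Rpl10a, Rpl23 and Rps27l were called higher in each. Rpl19, Rpl31, Rpl5 and Rps23 were called higher in 2 tissues, 19 genes in 1 and 55 in none. Of the members, 3.70%, 4.94%, 23.5% and 67.9% were thus called higher in 3, 2, 1 and no tissues, against 7.13%, 9.01%, 20.8% and 63.0% of all 10505 genes tested in each. With brain input 960 left out, the numbers of members were 6, 14, 60 and 1, against 8.37%, 14.6%, 23.3% and 53.7% of all genes. The log2 fold change was above 0 in all 3 tissues for 47 members (58.0%, against 25.1% of all genes) and in none for 3 (3.70%, against 25.2%), Rpl22l1, Rpl32 and Rplp1. The brain sign of the last 2 rests on input 960: without it Rpl32 was at 0.47 (adjusted p = 0.00113, edgeR) and Rplp1 at 0.77 (0.000260), both called higher, which left Rpl22l1 alone. Over the 81 genes, the log2 fold changes of choroid and retina had a Pearson r of 0.47, those of choroid and brain 0.43 and those of retina and brain 0.43 (0.56 and 0.67 for the last 2 without brain input 960), which describes genes and not independent replicates.

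The stalk genes differed among themselves. Rplp0, which anchors the stalk to the large subunit, was at 573, 524 and 853 CPM in choroid inputs and 382, 308 and 499 CPM in positives, the lowest log2 fold change of the choroid members (-0.71 ± 0.26). All 3 positives lay below all 3 inputs, and the adjusted p was 0.0539 (edgeR), or 0.00108 with the replicate block. In retina its value was -0.22 ± 0.12 and not called. In brain it was at 212, 206 and 345 CPM in inputs and 422, 442 and 392 CPM in positives, and was called higher (0.72 ± 0.23, adjusted p = 0.0449, edgeR; 0.0712 with the replicate block). Rplp1 had values of -0.15 ± 0.29 in choroid and -0.18 ± 0.53 in brain, both not called, beside its lower call in retina; without brain input 960 its brain value was 0.77 and called higher. Rplp2 had 0.58 ± 0.29, 0.18 ± 0.13 and 0.25 ± 0.56 in choroid, retina and brain, none of them called, though in choroid the replicate block gave 0.57 with an adjusted p of 0.0107 (edgeR). The brain value of Rplp2 was 1.28 without brain input 960 and called higher (adjusted p = 4.43e-05, edgeR), and that of Rplp0 was 1.00.

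The like-genes were compared with their closest relative within each library. Rps27l was at 36.1%, 49.9% and 36.6% of the level of Rps27 in choroid inputs and 63.9%, 105% and 58.1% in positives. In retina it was at 21.4% ± 1.54 (SD, n = 3) in inputs and 30.1% ± 1.38 in positives, and in brain at 19.7%, 23.8% and 9.07% in inputs and 33.2% ± 0.936 in positives. The positives lay above the inputs in each tissue. Rpl22l1 went the other way in choroid, at 16.7% ± 1.24 of Rpl22 in inputs and 9.22% ± 1.00 in positives, and in brain, at 36.1%, 38.8% and 59.6% in inputs and 16.4%, 14.3% and 16.7% in positives. In retina the Rpl22l1 share was 15.7% ± 1.18 in inputs and 12.7% ± 1.51 in positives, with 1 positive inside the range of the inputs. Rpl7l1 was at 16.8% ± 0.493 of Rpl7 in retina inputs and 17.0% ± 0.406 in positives, a difference within the spread. In choroid its share was 17.5%, 23.2% and 17.0% in inputs and 14.2%, 8.72% and 9.40% in positives, without overlap. In brain it was 23.9%, 23.7% and 10.4% in inputs and 13.6%, 13.3% and 14.6% in positives, so that inputs 421 and 953 lay above all positives and input 960 below them. These shares are descriptions with no test. Rps19bp1 had log2 fold changes of 0.54 ± 0.29, 0.00 ± 0.18 and 0.19 ± 0.24 in choroid, retina and brain, Rps4x, the X-linked small subunit protein, had -0.07 ± 0.23, 0.08 ± 0.11 and 0.46 ± 0.51, and Rpl22 had 0.45 ± 0.25, 0.23 ± 0.10 and 0.68 ± 0.37, and none of these was called. With the replicate block, Rps19bp1 (adjusted p = 0.0313, edgeR) and Rpl22 (0.0249) were called higher in choroid. When brain input 960 was left out, the brain values were 0.47 for Rps19bp1, 1.36 for Rps4x and 1.25 for Rpl22, each called higher (adjusted p = 0.00602, 6.26e-05 and 4.37e-05, edgeR).

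Differences between tissues in the fold change of positive over input were tested in 1 fit over all 18 libraries and the 10505 genes listed in all tables. Between choroid and brain, 0 members were called with a higher value in choroid and 3 with a lower one, against 12.2% and 12.3% of all genes. These were Rplp0 (difference -1.26 ± 0.32), Rpl10 (-0.80 ± 0.28) and Rpl7l1 (-0.57 ± 0.20). Without brain input 960 the number with a lower value was 52 and with a higher one 0, against 19.8% and 8.53% of all genes. It was 5 without choroid positive 960, and 1 without any retina input, retina positive 953, brain input 421 or 953, or brain positive 421 or 953, while 10.4% to 15.5% of all genes had a lower value in these fits.

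Between retina and brain, 0 members were called in either direction by edgeR, against 8.33% and 4.97% of all genes. At an unadjusted p below 0.05 there were 5, and DESeq2 called 2 lower in retina. Both counts stand without a share of all genes, so they are no result about the members. The replicate block also called 2 lower, against 9.27% of all genes higher and 6.08% lower. Without brain input 960 the number called lower in retina was 69 and higher 0, against 15% and 7.73% of all genes. Between choroid and retina, 1 member was called with a higher value in choroid and 0 with a lower one, against 10.9% and 18% of all genes. That gene was Rps4y2 (difference 1.55 ± 0.35), whose level was 51.7, 39.6 and 41.7 CPM in retina inputs and 30.2, 26.8 and 43.3 CPM in retina positives.

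Rpl10a was not called in any of the 3 differences. Choroid minus brain gave -0.09 (95% interval -1.07 to 0.90), retina minus brain -0.43 (-1.41 to 0.55) and choroid minus retina 0.35 (-0.64 to 1.33). Without brain input 960 the first of these was -1.03 and the next -1.42, and both were then called, with adjusted p of 0.0088 and 0.002 (edgeR).

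The positive fractions were also set side by side, in 1 fit over the 9 positives, which share the retina and brain libraries between comparisons. The members were higher in choroid than in retina for 80 of 81 genes and lower for 0, against 32.9% and 39.1% of all genes, with a median log2 fold change of 1.33 over the members and -0.11 over all genes. They were lower in retina than in brain for 78 and higher for 0, against 31.0% and 32.1% of all genes, with a median of -1.01. In choroid against brain 20 were called higher and 0 lower, against 23.1% and 23.8% of all genes, with a median of 0.33. The choroid against brain count was 44 without choroid positive 421, and 5 to 12 without any other choroid or brain positive (9 and 5 without choroid positives 953 and 960, 6, 12 and 5 without brain positives 421, 953 and 960). Of all genes 24.9% were called higher without choroid positive 421, and 16.6% to 20.4% in those other fits. The retina counts stayed between 75 and 80 in all fits that left out 1 library. Short transcripts outside the members, by the length limit given above, followed the same order of tissues. Of the counts outside the members they took 5.47% to 8.14% in choroid positives, 4.85% to 5.25% in brain and 2.56% to 3.33% in retina. Whether the order of the members is separate from that of other short transcripts was not tested.

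Rps27l differed most between choroid and the other positives, at 75.6, 161 and 118 CPM in choroid, 23.3, 24.6 and 20.3 CPM in retina and 44.0, 51.4 and 42.0 CPM in brain. The groups did not overlap, and choroid was 2.57-fold above brain and 5.19-fold above retina. Rpl23 (log2 fold change 1.90) and Rps9 (2.20) also stood highest in choroid against retina, and Rpl10 (-1.65), Rpsa (-1.40) and Rps9 (-1.38) lowest in retina against brain. Rpl41, at 0.92, and Rpl23, at 0.89, followed Rps27l in choroid against brain. Rpl10a was at 1029, 618 and 704 CPM in choroid, 444, 403 and 397 CPM in retina and 609, 665 and 516 CPM in brain. Its level was called higher in choroid than in retina (log2 fold change 0.92 ± 0.21) and lower in retina than in brain (-0.52 ± 0.21), and choroid and brain were not called (0.39, 95% interval -0.06 to 0.85).

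The inputs gave a like order. In choroid against retina 70 members were called higher and 1 lower, against 31.9% and 31.9% of all genes, with a median of 1.37. The gene called lower was Rps4y2 (-0.81). The count was 46, 41 and 21 without choroid inputs 421, 953 and 960, and 45, 46 and 40 without the retina inputs in the same order, while 25.6% to 27.6% of all genes were called higher. In retina against brain 1 was called higher, Rps4y2, and 33 lower, against 24.3% and 34.7% of all genes, with a median of -1.01. Without brain input 960 these were 3 and 6 (33.7% and 32.5% of all genes), and the median was -0.12. Without any other library of this fit, 0 were called higher where a retina or brain input was left out, and the number lower ran from 4 to 56: it was 56 without brain input 421 or 953, 5, 4 and 4 without retina inputs 421, 953 and 960, and 7, 5 and 10 without the choroid inputs in that order. Of all genes 27.2% to 33.6% were called lower in these fits. In choroid against brain 10 were called higher and 0 lower, against 26.7% and 27.4% of all genes, or 77 without brain input 960 (34.2% of all genes higher, 34.6% lower) and 16 with the replicate block (27.1% and 27.1%). It was 4 without choroid input 960, brain input 421 or brain input 953, and 5 without choroid input 953, against 23.4% to 24.7% of all genes. Other short transcripts took 5.69% to 7.81% of the counts outside the members in choroid inputs and 2.38% to 2.54% in retina inputs. In brain inputs 421, 953 and 960 they took 3.12%, 3.28% and 7.19%. Their part in the order of the inputs was not tested.

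In inputs too Rps27l stood highest, 4.06-fold above brain (4.94-fold without brain input 960) and 5.70-fold above retina in choroid. Rpl10 was at 511, 418 and 643 CPM in choroid inputs, 107, 110 and 111 CPM in retina inputs and 215, 207 and 306 CPM in brain inputs, without overlap. Rplp0 was at 672, 610 and 994 CPM in choroid inputs and 249, 241 and 400 CPM in brain inputs (log2 fold change 1.35, or 1.62 without brain input 960), and Rpl41 was higher in choroid than in retina (2.13). The largest negative values of retina against brain, Rpl38 (-1.89), Rpl22l1 (-1.89) and Rps21 (-1.85), came with brain inputs that were far apart, such as 151, 159 and 801 CPM for Rps21 in inputs 421, 953 and 960. Without input 960 they were -0.60 (still called), -0.80 (still called) and -0.46 (adjusted p = 0.0670, edgeR).

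**Figure D5:**
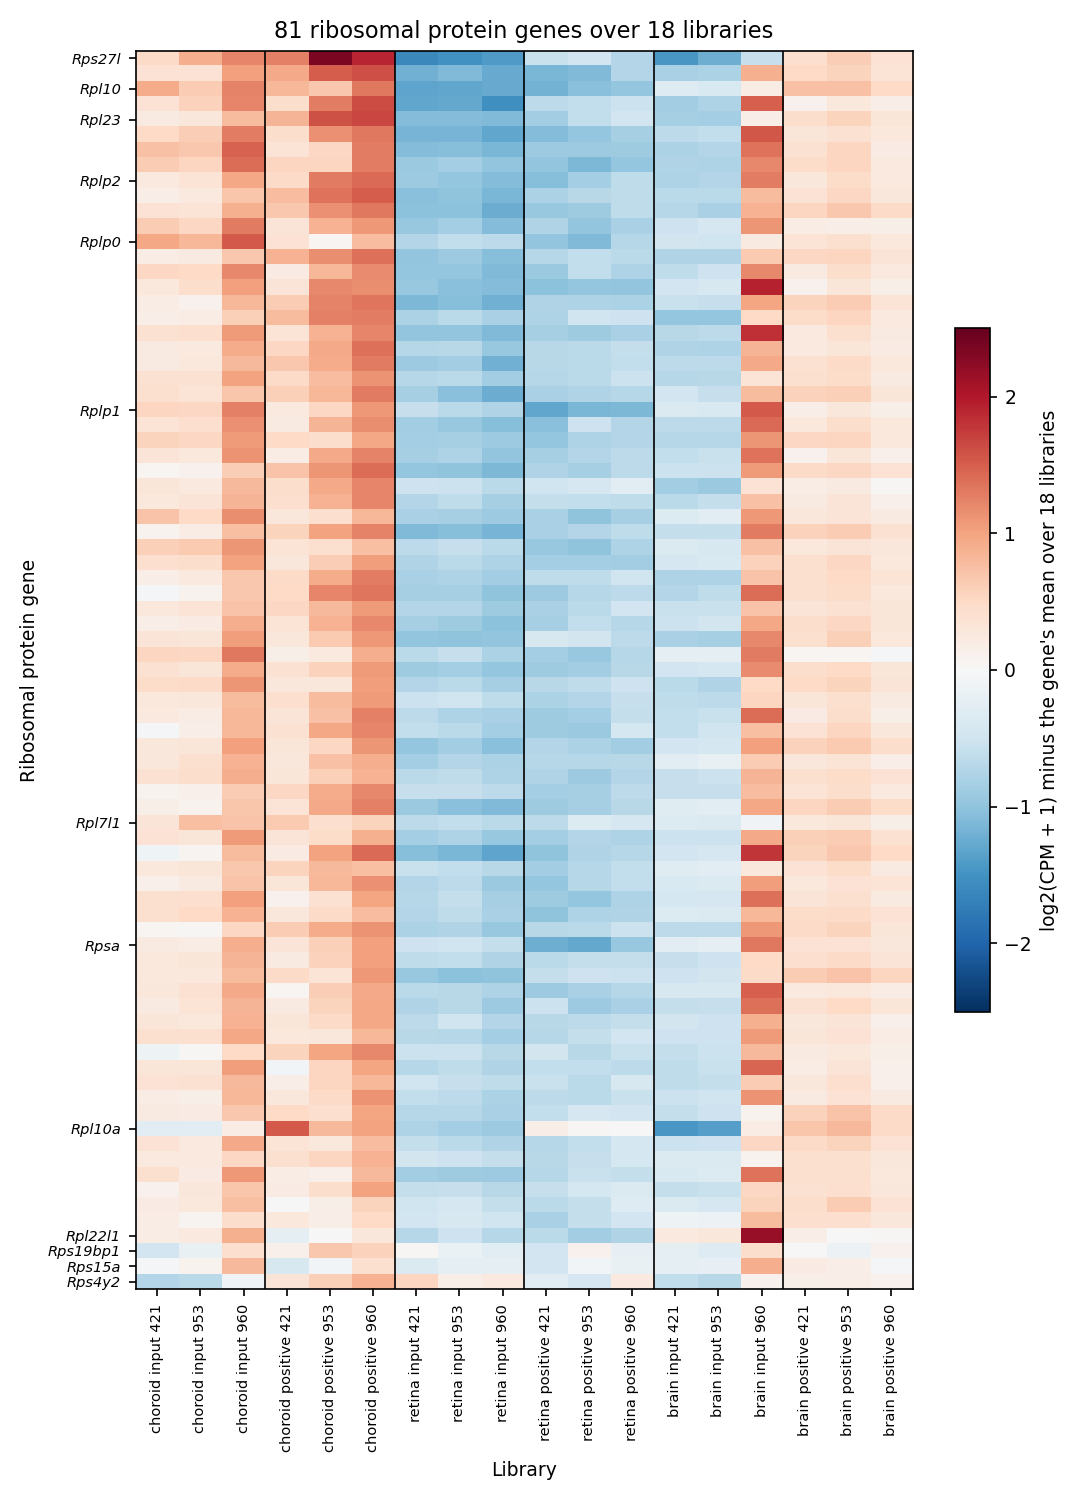
Level of each of the 81 ribosomal protein genes (rows) in each of the 18 libraries (columns), as log2(CPM + 1) minus the mean of the gene over all libraries, scaled over the 18 libraries together; red is above and blue below the mean, and black lines separate the groups; row names are given for some of the genes described in the text. Most genes share 1 pattern, with choroid libraries and brain input 960 high and retina libraries low. Rpl10a, Rpl22l1, Rpl7l1, Rps15a, Rps19bp1, Rps27l and Rps4y2 are among those that depart from this pattern.

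The members largely moved together over the 18 libraries. The Pearson correlation of log2(CPM + 1) had a median of 0.94 over pairs of the 80 genes other than Rpl10a, as a description of libraries that share tissue, fraction and depth. Rpl10a followed them less closely, with a median of 0.65 and a range from 0.12 to 0.84. Its median with the other genes listed in all tables was -0.07. The members most like Rpl10a were Rpl7 (0.84), Rpl5 (0.81) and Rpl23 (0.80), and the least like it was Rpl22l1. The medians over pairs of members and with Rpl10a were 0.95 and 0.67 without brain input 960, and the most like were Rpl7 (0.84), Rpl5 (0.81) and Rps3 (0.81).

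Because the members moved together, the sequence around their starts was read from RefSeq (GRCm38.p6), where 60 of the 81 were matched by symbol. Within the window from 30 bases before to 50 bases after the annotated start, on the sense strand, CTCTTTC was present in 12 of the 60, against 1.28% of 27025 genes, and CTTTCC in 17 (28.3%), against 4.36%. A start that reads CTCTTTCC is counted under both. A run of 5 or more C or T over the annotated start was present in 20 (33.3%), against 11.8% of genes. In the whole window of 250 bases before to 50 after, on either strand, CCGGAAG was present in 24 of 60, against 9.93%, and ATGGCGG in 11 (18.3%), against 4.69%. These are matches of letters, and the start annotated may not be the one used in these tissues.

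Shown are 40 bases before to 20 bases after the start, 5′ to 3′ on the strand of the gene, for Rpl10a, Rps27l and Rpl23, which were called higher in all 3 pull-downs, and for Rpl5, Rps27 and Rpl15, members called higher in at least 1 tissue whose windows hold CTCTTTC or CTTTCC. Capitals mark that motif, and the first 3 windows have neither.
Rpl10a, chr17:28328431-28328490, plus strand: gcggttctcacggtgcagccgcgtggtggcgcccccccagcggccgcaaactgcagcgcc
Rps27l, chr9:66946046-66946105, plus strand: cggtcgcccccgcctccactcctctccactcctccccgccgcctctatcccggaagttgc
Rpl23, chr11:97782420-97782479, minus strand: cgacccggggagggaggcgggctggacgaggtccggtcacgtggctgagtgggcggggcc
Rpl5, chr5:107900488-107900547, plus strand: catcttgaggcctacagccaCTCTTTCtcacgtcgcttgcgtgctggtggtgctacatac
Rps27, chr3:90213629-90213688, minus strand: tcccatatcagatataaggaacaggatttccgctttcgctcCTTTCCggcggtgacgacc
Rpl15, chr14:18270967-18271026, minus strand: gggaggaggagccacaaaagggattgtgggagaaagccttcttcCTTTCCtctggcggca

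Other genes of the translation machinery were listed by role. Of 16 other messenger RNAs known for an oligopyrimidine start, such as those of elongation factors, 2 were called higher in choroid, 2 in retina and 3 in brain, and 0 lower in each, with medians of 0.22, -0.10 and 0.39. Of 76 mitochondrial ribosomal protein genes 13 were called higher and 1 lower in choroid, 4 and 0 in retina and 1 and 1 in brain, with medians of 0.42, 0.01 and -0.12. Of 15 ribosome biogenesis genes, 7 were called higher in choroid, 1 in retina and 1 in brain and 0 lower, with medians of 0.52, -0.02 and -0.05. Of 11 genes of the RNA polymerase that makes ribosomal RNA, 2 were called higher and 2 lower in choroid, 2 and 1 in retina and 2 and 0 in brain. Of the translation initiation factors, 12 of 32 were called higher in choroid, 1 of 31 in retina and 4 of 32 in brain, with 0, 0 and 1 lower. Beside the shares of all genes called higher, 21.1%, 18% and 21.2%, these counts are descriptions with no test of the lists. The brain values of these lists also rest on input 960, in which mitochondrial ribosomal protein genes summed to 4850 CPM against 2408 and 2447 in the other inputs and 2959 to 3057 in positives. Without it their brain median was 0.32, with 42 called higher and 5 lower of 76, and that of the biogenesis genes was 0.23, with 7 higher and 3 lower of 15. The other oligopyrimidine messenger RNAs then had 15 of 16 called higher and a median of 0.78, the polymerase genes 4 higher and 2 lower of 11, and the initiation factors 19 higher and 3 lower of 32. Of all genes 36.1% were called higher in that fit and 35.9% lower.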

How the data were processed

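Titles gave the groups and replicate numbers. Per the submitters' processing notes, the genome build was mm10 and DESeq was used; aligner and counter: not given in the sources used here. The authors deposited 1 table per tissue with raw and normalized columns. Per the file headers, genes were kept if every library of at least 1 fraction had a raw value of at least 50. The raw columns hold expected counts deposited by the authors, 72.0% to 91.5% of them not whole within 0.001, and were rounded. The deposited normalized values, on a log2 scale, were not used.

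edgeR 4.0.16 (R 4.3.3) was run with TMM scaling, filterByExpr and the quasi-likelihood test, with Benjamini-Hochberg adjustment over all genes of the fit and a call at an adjusted p below 0.05. Enrichment was fitted per tissue, differences over 18 libraries and tissues over the 9 libraries of a fraction. CPM come from the same scaling. The fit was tested on simulated counts. Alternatives were DESeq2 1.42.0, library size scaling alone, TMM without the members, other filters, the replicate number as a block, each library left out, 1 fit of all libraries and only shared genes. Shares were compared by two-sided exact permutation tests. The labels call the 3 libraries of a group biological replicates; whether each number is 1 animal they do not say.

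The protocol divides 1 cleared lysate into input and pull-down, so same-numbered libraries of a tissue were read as pairs, from that protocol. Only the fits with the replicate number as a block used this pairing. The main fits and the exact permutation tests treated the libraries as unpaired. Within such pairs, deviations from the group means correlated at 0.63, 0.23 and 0.49 in choroid (421, 953, 960). They correlated at 0.10, 0.08 and -0.01 in retina and 0.17, 0.02 and 0.07 in brain. Across tissues, choroid and brain inputs of the same number correlated at 0.47, 0.06 and 0.59 in that order. Other pairs of tissues within a fraction gave -0.18 to 0.18. The fits across tissues did not model this, except with the replicate number as a block.

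Named genes were Rpl10a, the stalk genes, Rpsa and relatives of members, the 5 highest and lowest called members per tissue, 3 per other comparison, and the 3 most like Rpl10a; further called members are named for completeness, after their values were seen. 1 further gene that this rule names is not described by name here. Members and lists were chosen with earlier results of these data known. Transcript lengths are from GENCODE M21 (345 to 5179 bases, median 882), for the principal transcript with the longest coding part, and the longest where these were equal. Start sites are from RefSeq (GRCm38.p6); protein sequences were not used here.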

Additional observations from a re-analysis of the deposited data

Results flagged for a closer look

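The fold change of positive over input differed between tissues for 4 members by the interaction term of the fit over all 18 libraries (edgeR). Between choroid and brain these were Rplp0 (difference -1.26), Rpl10 (-0.80) and Rpl7l1 (-0.57), each with a lower value in choroid. They are 3.70% of the members, against 12.3% of all genes called with a lower value in choroid. Between choroid and retina it was Rps4y2 (1.55), with the higher value in choroid, or 1.23% of the members, against 10.9% of all genes. With all 18 libraries, members were thus called less often than all genes in both differences. For choroid minus brain this rests on brain input 960. Without it, 52 of the 81 members were called with a lower value in choroid, against 19.8% of all genes. The calls of Rplp0 and Rps4y2 held under all 24 alternatives tried, with values from -1.73 to -1.13 and from 1.28 to 1.83, while those of Rpl10 and Rpl7l1 were lost under 10 of 24 each. By edgeR or DESeq2 with Benjamini-Hochberg adjustment, adjusted p over the alternatives ranged from 0.00218 to 0.0922 for Rpl10 and from 0.00230 to 0.110 for Rpl7l1. Without brain input 960, Rplp0 was at -1.73, Rpl10 at -1.19 and Rpl7l1 at -0.86, all still called.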

How the results depend on the processing

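With the replicate number as a block (paired by lysate), the members called higher were 32 in choroid, 9 in retina and 6 in brain, and 2 were called lower in choroid, 2 had a lower value in retina than in brain and 16 were higher in choroid than in brain inputs. The block also turned the brain value of Rplp1 to 0.15 and the retina value of Rps19bp1 to -0.00084. Among the genes followed under every alternative, it changed no call other than those given beside the results. Library size scaling alone gave 6 higher and 1 lower in choroid, 9 lower in choroid minus brain and 2 lower in retina minus brain, with choroid values of -0.015 for Rpsa and -0.10 for Rps27. DESeq2 called 1 lower in choroid and 2 lower in retina minus brain, and the filter at a mean of 10 CPM called 1 lower in choroid. One fit of all 18 libraries called 1 lower in choroid, 1 higher and 0 lower in retina and 1 lower in brain, with Rpl10a at 0.91 in retina (no longer called), Rpsa at -0.13 and Rps27a at -0.00076 in brain and Rps19bp1 at -0.039 in retina. With only the genes shared by the tables, 1 was called lower in choroid and 5 higher in brain, with Rpl10a at 1.44 in brain (no longer called), Rpsa at -0.035 in brain and Rps19bp1 at -0.016 in retina. TMM without the members left 0 higher in retina inputs against brain inputs. Shares of all genes stand with the results above for the counts of the replicate block. They also stand there for the choroid counts of library size scaling and the retina counts of the fit over all 18 libraries. The remaining counts stand without such a share, so they describe the settings and are no result about the members. The cause of these changes was not tested, beyond the shift of all genes by library size scaling.

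Leaving out 1 library at a time, the choroid members called higher ran from 2 to 20, the retina ones from 5 to 28 and the brain ones from 1 to 80, and those called lower from 0 to 1, 0 to 5 and 0 to 0. The Rpl10a value ran from 1.25 to 2.29 in brain. In the differences, members called lower in choroid minus brain ran from 1 to 52, against 10.4% to 19.8% of all genes. In retina minus brain they ran from 0 to 69, against 3.04% to 14.95% of all genes. Members called higher in choroid minus retina ran from 1 to 5, against 7.94% to 17.7% of all genes. The Rpl10a value ran from -1.03 to 0.19 in choroid minus brain and from -1.42 to -0.16 in retina minus brain. Between positives of choroid and brain, 5 to 44 were called higher and 0 to 1 lower, against 16.6% to 24.9% and 19.6% to 26.1% of all genes. Between inputs, 4 to 77 were called higher in choroid against brain (23.4% to 34.2% of all genes). In retina against brain 0 to 3 were higher (19.9% to 33.7%) and 4 to 56 lower (27.2% to 33.6%). In choroid against retina 21 to 78 were higher (25.6% to 34.4%) and 0 to 1 lower (27.5% to 43.6%). The choroid difference in member share ran from -0.131 to 0.614 percentage points and the brain difference from 0.356 to 1.59. The difference in Rpl10a relative to the other members was 0.577 to 1.18 (choroid), 0.751 to 0.907 (retina) and 1.10 to 1.18 (brain), above 0 in every case. Values of genes not called changed sign in choroid for Rplp1 (-0.42 to 0.14), Rps27 (-0.089 to 0.42), Rpl7l1 (-0.18 to 0.021) and Rps4x (-0.25 to 0.13), in retina for Rps19bp1 (-0.14 to 0.13) and in brain for Rplp1 (-0.50 to 0.77), Rplp2 (-0.088 to 1.28), Rpsa (-0.22 to 0.79) and Rps27a (-0.16 to 1.25). The median of the members minus that of all genes was above 0 in all 3 tissues under every alternative tried. With 3 libraries a group, a single library moved many of these counts, brain input 960 among them in the fits that hold it. Members called between positives moved little for retina against brain (75 to 78 lower) and choroid against retina (78 to 80 higher). Choroid positives are the shallowest.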
